A study of Homo sapiens with 9 samples.

Results

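The unfolded protein and amino acid stress genes are 36 genes of 60642 gene names in the count table, matched by name to a list of 36. They form a pair of arms. The ER arm holds 18 genes of the endoplasmic reticulum, namely chaperones, protein disulfide isomerases, genes of ER-associated degradation, and the stress sensors with XBP1. The ATF4 arm holds 18 genes, namely transcription factors, feedback and stress effectors, enzymes of amino acid synthesis, amino acid transporters and VLDLR. All 36 were matched by name and all passed the filter on low counts, among 18574 genes tested. The smallest count of a member in any library was 171.

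In the unfolded protein response, misfolded proteins in the ER are sensed by IRE1 (gene ERN1), ATF6 and PERK (gene EIF2AK3), which raise chaperone and degradation genes through spliced XBP1 mRNA and cleaved ATF6. PERK and other kinases phosphorylate eIF2alpha, a translation initiation factor, which lowers most protein synthesis but lets ATF4 mRNA be translated. ATF4 then drives genes for amino acid import and synthesis, and amino acid shortage can switch on this arm with no stress in the ER. Hepatocytes secrete much protein and carry a large ER, and hepatocellular carcinoma (HCC) arises from them. ATF4, XBP1 and ATF6 are controlled largely after transcription, so mRNA levels are a partial view of them.

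The study asked how EMX1-FL, the full-length product of the homeobox gene EMX1, and EMX1-X1, an isoform with another terminal exon, act in HCC cells. SNU-398, an HCC cell line with mesenchymal features, was made to overexpress either isoform stably from lentivirus and was selected with puromycin. The 9 RNA-seq libraries were 3 of the vector control (the control from here on), labelled wild type and selected with puromycin too, 3 of EMX1-FL and 3 of EMX1-X1. The labels do not say whether the 3 libraries of a group came from separate cultures or clones, so every p-value measures the spread between these libraries, which may be technical.

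Between 21562703 and 25197970 read pairs were counted per library. EMX1 was at 9.34 to 12.9 CPM (counts per 1000000 counted read pairs) in the vector control, between 134.9 and 251.1 in EMX1-FL and 144.8 to 294.4 in EMX1-X1, so the labels held for the overexpressed gene. The count is per gene name and does not part the isoforms. Of 7 hepatocyte markers, 2 (ALB and GPC3) had a median of at least 1 TPM (transcripts per 1000000), while AFP and TTR were at 0 in every library. Of 5 mesenchymal markers 4 reached that level, and of 3 epithelial markers 2 did (EPCAM and CDH1). The mesenchymal markers summed to 753.5 to 1206 TPM and the epithelial markers to 4.5 to 9.97 TPM. The blood cell markers summed to 0 to 0.255 TPM and the endothelial markers to 0 to 0.162 TPM. The libraries also divided in a way that the groups do not explain. The first principal component of log2 CPM over all genes tested, with 39.6% of the variance, divided 5 libraries from 4. The 5, here named set 1, were EMX1-X1 1, EMX1-FL 2 and 3, and control libraries 1 and 2. The 4, named set 2, were EMX1-X1 2 and 3, EMX1-FL 1 and control library 3. These sets were drawn from the counts, are not conditions of the study, and no label names a batch that matches them. Members moved with them, so the results that matter most are also given within the sets. Within a set each group had only 1 or 2 libraries, so those differences are descriptions and were not tested.

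Promoter letters linked to the arms are shown first, as a description. The genes and the motifs were both already known as parts of these pathways, so the matches are not a test of the arms. The ER stress response element (ERSE), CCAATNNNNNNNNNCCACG, is bound by NF-Y with cleaved ATF6 or XBP1. The C/EBP-ATF response element (CARE), TGATGNAAN, is bound by ATF4 with a C/EBP partner. Both strands of RefSeq promoter windows (GRCh38.p14, 250 bases before to 50 bases after each start site) were searched, with windows for 18 of 18 ER arm genes and 16 of 18 ATF4 arm genes. SLC7A11 and PSPH had no window and were not searched. An ERSE stood in 6 ER arm genes (HSPA5, HSP90B1, CALR, CRELD2, PDIA6 and XBP1) and in 0 ATF4 arm genes, against 25 of 27305 genes with a window, or 0.092%. A CARE stood in 1 ER arm gene (HERPUD1) and in 3 ATF4 arm genes (CHAC1, ASNS and SLC3A2), against 1215 of all genes with a window, or 4.45%. The XBP1 motif TGACGTGG stood in 0 members and in 0.927% of those genes. A match describes letters and is not a measured site, and a window with no match says only that these letters are not in it. The sequences below show the elements of 3 ER chaperones, of XBP1, and of the 3 ATF4 arm genes with a CARE, with the fixed letters of each element in capitals and the motif in its own 5′ to 3′ direction.
HSPA5, ERSE, chr9:125241383-125241417, minus strand: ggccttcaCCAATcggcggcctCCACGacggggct
HSP90B1, ERSE, chr12:103930208-103930242, plus strand: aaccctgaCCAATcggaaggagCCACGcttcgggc
HSP90B1, ERSE, chr12:103930313-103930347, minus strand: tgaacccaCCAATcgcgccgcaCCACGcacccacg
CALR, ERSE, chr19:12938376-12938410, minus strand: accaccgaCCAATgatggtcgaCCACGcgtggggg
XBP1, ERSE, chr22:28800595-28800629, minus strand: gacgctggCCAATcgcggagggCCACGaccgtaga
CHAC1, CARE, chr15:40953253-40953277, minus strand: ggcaggagTGATGcAAcggcagggg
ASNS, CARE, chr7:97872460-97872484, minus strand: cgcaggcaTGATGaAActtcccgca
SLC3A2, CARE, chr11:62881727-62881748, minus strand: ggagcTGATGtAAggagtcctg
The HSPA5 element began 66 bases before the start site on the strand of the gene, and the HSP90B1 promoter held a pair of elements on opposite strands.

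Without any overexpression, the ATF4 arm was already strongly expressed. In the vector control the median ATF4 arm gene had 174.8 TPM, a unit that corrects for length, against 46.4 TPM for the ER arm and 12.4 TPM for all genes tested. Of the ATF4 arm, 14 of 18 genes stood in the top 10% of genes tested, against 6 of 18 in the ER arm. TRIB3, a pseudokinase that ATF4 induces and that feeds back on it, led with a mean of 1060 TPM, above 99.7% of the genes tested. ATF4 itself had 939.5 TPM and PSAT1, an enzyme of serine synthesis, 920.2 TPM. CALR (calreticulin, a chaperone of glycoproteins, 511.6 TPM) and HSPA5 (BiP, the main ER chaperone of the HSP70 family, 455.4 TPM) led the ER arm. At the low end were CRELD2, a secreted ER stress protein, with 11.8 TPM, VLDLR with 12.6 TPM and ATF5 with 14.5 TPM.

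No member was called in any comparison. In bulk libraries, fewer cells that express a gene and less RNA per cell cannot be told apart. A differentially expressed gene (DEG) was called at the study's threshold, a p under 0.05 without adjustment together with a log2 fold change of 1 or more in size. Of the 36 members, 0 passed in EMX1-FL versus control, where 2.42% of all genes tested passed, 0 in EMX1-X1 versus control (2.5% of all genes) and 0 in EMX1-FL versus EMX1-X1 (1.42% of all genes). When the p was adjusted and the fold change kept, 0 members passed in each, where 0.07%, 0.00538% and 0% of all genes did. With edgeR's quasi-likelihood test, an unadjusted p under 0.05 was reached by 1 member in EMX1-FL versus control (5.8% of all genes tested), by 0 in EMX1-X1 versus control (8.11%) and by 2 in EMX1-FL versus EMX1-X1 (7.63%). DESeq2 gave 1, 1 and 2 members at that level, where 6.74%, 9.21% and 9.12% of all genes reached it. On log2(TPM + 1), limma gave 1, 1 and 2 (6.29%, 9.44% and 7.69% of all genes). Neither gave a member at an adjusted p under 0.05, a level that at most 0.932% of all genes reached in these fits. The groups did not overlap in log2 CPM for 1 member in EMX1-FL versus control (10.5% of all genes), 3 in EMX1-X1 versus control (14.7%) and 1 in EMX1-FL versus EMX1-X1 (8.38%). In all 3 comparisons of this fit the members' shares lay at or below those of all genes, an order that turned in other fits of the same counts, described further on with their values. The absolute log2 fold change was under 0.5 for 35, 35 and 33 of the 36 members, and the plot of fold changes shows how narrow the range was.

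**Figure D1:**
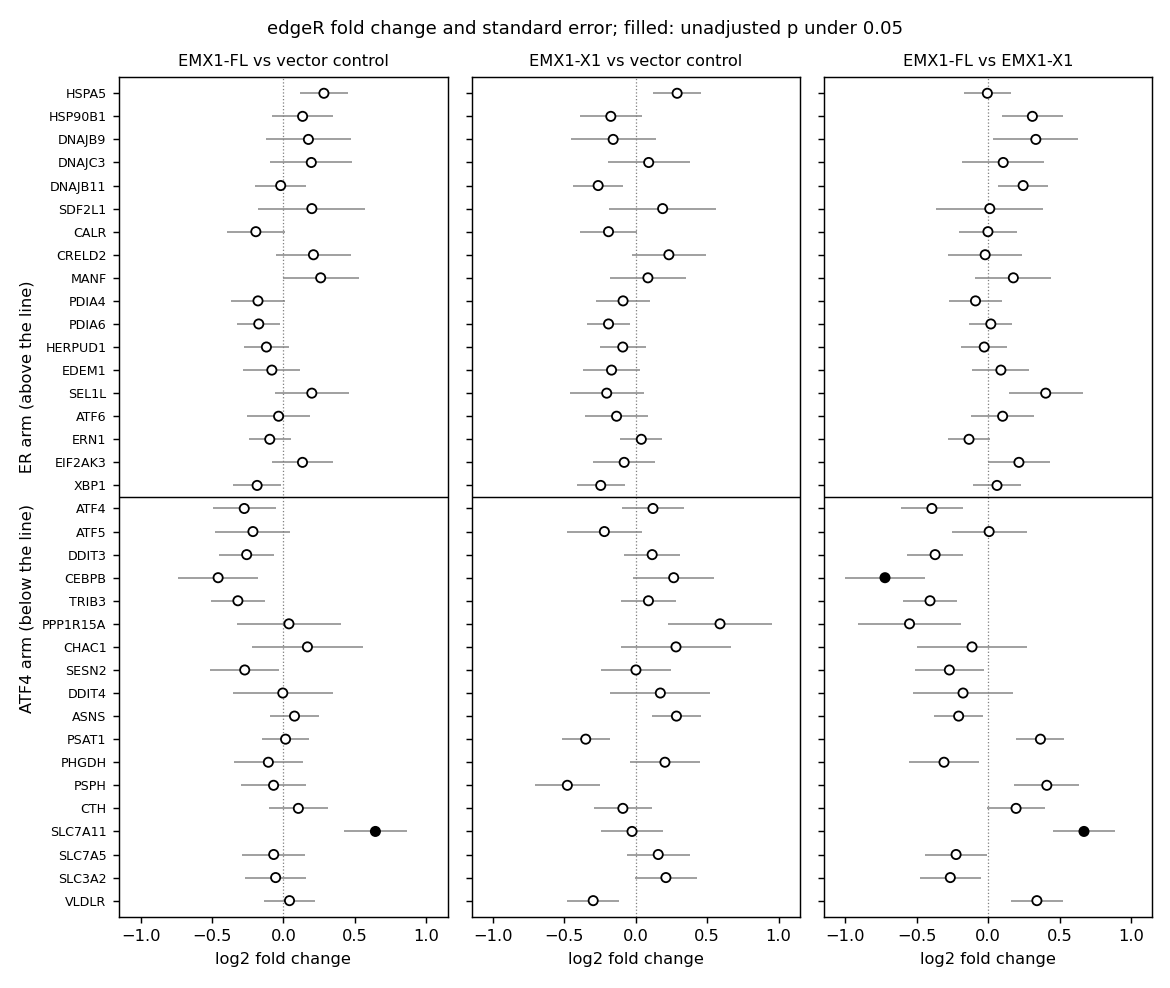
Log2 fold change of each of the 36 genes (horizontal axis) with its standard error from edgeR, in EMX1-FL versus control, EMX1-X1 versus control and EMX1-FL versus EMX1-X1, with the ER arm above the line and the ATF4 arm below it. Filled points have an unadjusted p under 0.05 and are SLC7A11 (0.64) in the first panel, none in the second, and CEBPB (-0.72) and SLC7A11 (0.67) in the third.

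Among the 9 ER chaperones and co-chaperones, fold changes were small in both overexpression groups. HSPA5 was at 489.4, 490.7 and 548.3 CPM in the vector control, 502.4, 601.6 and 756.3 CPM in EMX1-FL, and 579.8, 637.5 and 650.5 CPM in EMX1-X1. All 3 EMX1-X1 libraries lay above all 3 vector control libraries, while EMX1-FL 1 lay among the controls. HSPA5 had the smallest p of the ER arm in both comparisons with the vector control, with a log2 fold change of 0.28 (SE 0.17, adjusted p = 0.997) in EMX1-FL and 0.29 (SE 0.17, adjusted p = 0.655) in EMX1-X1 by edgeR's quasi-likelihood test. The two-sided exact permutation test of its log2 CPM gave p = 0.2 and p = 0.1, the latter being the smallest that 3 libraries against 3 allow. The difference of mean log2 CPM of HSPA5 from the control was 0.46 (EMX1-FL) and 0.24 (EMX1-X1) within set 1, and -0.13 and 0.23 within set 2. EMX1-FL and EMX1-X1 differed by -0.0058 in HSPA5 (SE 0.17, adjusted p = 0.991, edgeR), which other scalings turned to a value just above 0. The other chaperones lay between -0.19 (CALR) and 0.26 (MANF, a secreted ER protein) in EMX1-FL, and between -0.26 (DNAJB11, a co-chaperone of BiP) and 0.23 (CRELD2) in EMX1-X1. HSP90B1, the ER member of the HSP90 family, had 444.7 ± 74.1 CPM (SD, n = 3) in control libraries, 488.1 ± 116.9 in EMX1-FL and 393.9 ± 74.2 in EMX1-X1. DNAJB9 and DNAJC3, J-domain partners of BiP, were 0.18 and 0.20 in EMX1-FL and -0.16 and 0.090 in EMX1-X1 on the log2 scale. SDF2L1 had the widest error, 0.20 with an SE of 0.38 in EMX1-FL. Of the genes that carry an ERSE, HSPA5, HSP90B1 and CRELD2 had a log2 fold change above 0 in EMX1-FL, while CALR, PDIA6 and XBP1 were below 0. Each had an adjusted p = 0.997 (edgeR), so these signs do not show that the directions differed.

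The disulfide isomerases and degradation genes had log2 fold changes between -0.20 and 0.20 from the control in both groups. PDIA4 and PDIA6, which form disulfide bonds in the ER, were at -0.18 and -0.17 in EMX1-FL and at -0.089 and -0.19 in EMX1-X1. HERPUD1, a membrane protein of ER-associated degradation, was at -0.12 and -0.091. EDEM1, which hands misfolded glycoproteins to degradation, was at -0.081 and -0.17. SEL1L, the partner of the ubiquitin ligase HRD1, was at 116.9, 111.6 and 85.5 CPM in the vector control, 77.4, 130.6 and 152.4 CPM in EMX1-FL, and 114.6, 86.6 and 71.4 CPM in EMX1-X1. The lowest library of each group was of set 2, and the groups overlapped. SEL1L had the smallest p of the ER arm in EMX1-FL versus EMX1-X1, with a log2 fold change of 0.40 (SE 0.26, adjusted p = 0.617, edgeR). Within set 1 that difference was 0.30, and within set 2 it was -0.023.

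The 3 sensors and XBP1 showed no call. ERN1, ATF6 and EIF2AK3 had log2 fold changes of -0.096, -0.034 and 0.13 in EMX1-FL and 0.039, -0.13 and -0.081 in EMX1-X1. XBP1, whose mRNA IRE1 splices, was at 171.6, 175.9 and 215.9 CPM in the vector control, 139.4, 184.0 and 172.5 CPM in EMX1-FL, and 165.1, 144.5 and 165.5 CPM in EMX1-X1. The 3 EMX1-X1 libraries lay just below all 3 vector control libraries, and those of EMX1-FL overlapped them. The log2 fold change of XBP1 was -0.25 in EMX1-X1 (SE 0.17, adjusted p = 0.695) and -0.18 in EMX1-FL (SE 0.17, adjusted p = 0.997) by edgeR. Within set 1 these differences were -0.074 and 0.036, and within set 2 they were -0.48 and -0.63. Counts per gene cannot show the splicing of XBP1 or the cleavage of ATF6.

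**Figure D2:**
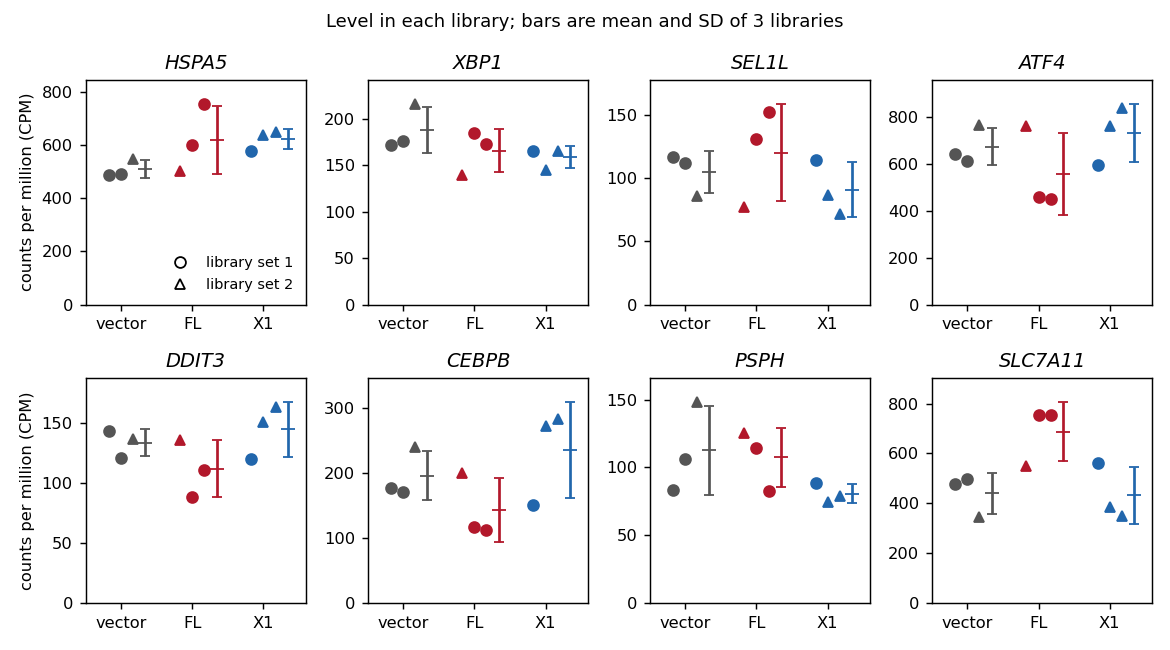
Level in CPM (vertical axes, from 0) of 8 genes in each of the 9 libraries, with circles for library set 1, triangles for set 2, and bars for the mean and SD of 3 libraries. SLC7A11 is high in all 3 EMX1-FL libraries (550.5 to 756.2 CPM), while CEBPB is highest in the triangles of EMX1-X1 (272.4 and 282.9 CPM).

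Of the 4 transcription factors of the ATF4 arm, all 4 had a log2 fold change below 0 in EMX1-FL and none passed. ATF4, the factor that gives the arm its name, was at 644.9, 614.5 and 765.7 CPM in the vector control, 762.5, 461.6 and 450.4 CPM in EMX1-FL, and 597.0, 763.8 and 840.0 CPM in EMX1-X1. EMX1-FL 2 and 3 were the lowest of the 9 libraries, while EMX1-FL 1 lay beside vector control 3. The log2 fold change of ATF4 was -0.27 in EMX1-FL (SE 0.22, adjusted p = 0.997) and 0.12 in EMX1-X1 (SE 0.22, adjusted p = 0.877) by edgeR. Within set 1 the differences were -0.47 and -0.077, and within set 2 they were -0.0060 and 0.065. DDIT3 encodes CHOP, a factor that ATF4 induces and that can promote cell death. It was at 143.5, 121.2 and 136.8 CPM in the vector control, 136.4, 88.5 and 111.0 CPM in EMX1-FL, and 119.8, 151.0 and 163.9 CPM in EMX1-X1. The log2 fold change of DDIT3 was -0.26 in EMX1-FL (SE 0.19, adjusted p = 0.997) and 0.11 in EMX1-X1 (SE 0.19, adjusted p = 0.868) by edgeR, with overlap between the groups. Within set 1 the differences of DDIT3 were -0.41 and -0.14, and within set 2 they were -0.0048 and 0.20. Of the exon bases of DDIT3, 39.6% lie in other genes, and read pairs there were not counted for either gene. ATF5, a factor related to ATF4, had low counts and was at -0.21 and -0.22.

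CEBPB, a C/EBP factor that can pair with ATF4, was at 176.9, 170.7 and 239.6 CPM in the vector control, 199.1, 117.0 and 111.6 CPM in EMX1-FL, and 150.5, 272.4 and 282.9 CPM in EMX1-X1. In each group the libraries of set 2 were the high ones, and the groups overlapped. EMX1-FL was below EMX1-X1 by a log2 fold change of -0.72 (SE 0.28, adjusted p = 0.611, edgeR), a difference with an unadjusted p under 0.05 that misses the adjusted threshold. The exact permutation test gave p = 0.2 for it. Within set 1 it was -0.40 and within set 2 -0.48, and with a GC offset, which takes out each library's curve on the GC content of genes, it was -0.27 (adjusted p = 0.484, edgeR). Against the vector control the log2 fold change of CEBPB was -0.46 (adjusted p = 0.997) in EMX1-FL and 0.27 (adjusted p = 0.788) in EMX1-X1 by edgeR. With the library set as a covariate, the first of these became -0.50 (adjusted p = 0.0327, edgeR). With the GC offset it became -0.51 (adjusted p = 0.0408, edgeR), and both were still under a log2 fold change of 1 in size. The sets and the GC curves were drawn from these same counts, so such p-values can be too small. When the replicate number was added to the GC offset as a block, the adjusted p was 0.103. The EMX1-X1 value turned to -0.014 with the covariate and to -0.24 with the GC offset (adjusted p = 0.973 and 0.384, edgeR).

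The feedback and stress effectors are TRIB3, PPP1R15A (GADD34, which helps to remove the phosphate from eIF2alpha), CHAC1 (which degrades glutathione), SESN2 and DDIT4 (both of which restrain mTORC1). Another gene overlaps 41.2% of the exon bases of DDIT4. PPP1R15A was at 31.4, 26.9 and 37.1 CPM in the vector control, 56.2, 20.0 and 21.8 CPM in EMX1-FL, and 33.1, 53.9 and 56.4 CPM in EMX1-X1. EMX1-FL 1 alone held nearly the same level as the high EMX1-X1 libraries, and its group mates were the lowest of all. The log2 fold change of PPP1R15A was 0.039 in EMX1-FL (SE 0.36) and 0.59 in EMX1-X1 (SE 0.36, adjusted p = 0.668, edgeR). Within set 1 these differences were -0.47 and 0.19, and within set 2 they were 0.60 and 0.57. CHAC1 reached 123.2 CPM in EMX1-FL 1 and 42.2 and 39.0 CPM in the other EMX1-FL libraries, and differed from the control by -0.47 within set 1 and 0.82 within set 2. TRIB3 was the member of this role with the smallest p, -0.32 in EMX1-FL versus control and -0.41 in EMX1-FL versus EMX1-X1, with edgeR's adjusted p = 0.997 and 0.611. The first was -0.32 within set 1 (2 libraries a side) and -0.32 within set 2 (1 library a side). The second was -0.25 within set 1 and -0.27 within set 2. With the GC offset the first was -0.32 (adjusted p = 0.285) and the second -0.069 (adjusted p = 0.891, edgeR). Signs of the other effectors turned in part. In EMX1-FL versus EMX1-X1 all 5 were below 0 in this fit. Within set 2, however, PPP1R15A, CHAC1, SESN2 and DDIT4 were at 0.026, 0.54, 0.068 and 0.26. With the library set as a covariate CHAC1 (0.058) and DDIT4 (0.078) were above 0. With the GC offset PPP1R15A, CHAC1, SESN2 and DDIT4 were at -0.35, 0.13, -0.0042 and 0.044. In EMX1-X1 versus control, which shares the EMX1-X1 libraries, 4 were between 0.089 and 0.59 and SESN2 was at 0.00096. With the covariate TRIB3, CHAC1, SESN2 and DDIT4 were there at -0.054, -0.074, -0.19 and -0.19, and with the GC offset at -0.25, -0.13, -0.31 and -0.13, with no adjusted p under 0.05.

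The 5 amino acid enzymes had values on both sides of 0. ASNS, which makes asparagine, was at 0.28 in EMX1-X1 (SE 0.17, adjusted p = 0.661, edgeR) and at 0.078 in EMX1-FL, the former being 0.089 within set 1 and 0.49 within set 2. Of its exon bases, 49.3% overlap another gene. The serine enzymes PHGDH, PSAT1 and PSPH were at -0.11, 0.015 and -0.069 in EMX1-FL and at 0.20, -0.35 and -0.48 in EMX1-X1. Within set 1 the EMX1-X1 differences were -0.10, -0.070 and -0.090, within set 2 they were 0.14, -0.58 and -0.94, and with the covariate PHGDH was at -0.016. PSPH was at 83.03, 106.4 and 148.1 CPM in the vector control, 125.2, 114.0 and 82.5 CPM in EMX1-FL, and 88.3, 74.7 and 79.2 CPM in EMX1-X1. The control libraries alone ranged wider than the difference between the groups, and the EMX1-X1 libraries overlapped the lowest control. PSPH had the smallest p of the ATF4 arm in EMX1-X1 versus control (SE 0.23, adjusted p = 0.619, edgeR), and the difference was -0.090 within set 1 and -0.94 within set 2. In EMX1-FL versus EMX1-X1, all 3 EMX1-FL libraries of PSAT1 (547.1, 673.8 and 536.8 CPM) lay above all 3 EMX1-X1 libraries (529.6, 398.5 and 436.0 CPM), at a log2 fold change of 0.37 (adjusted p = 0.611, edgeR). That difference was 0.18 within set 1 and 0.39 within set 2, and with the GC offset it was 0.18 (adjusted p = 0.727, edgeR). CTH, which makes cysteine, was at 0.10 in EMX1-FL and -0.091 in EMX1-X1.

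SLC7A11 was the member with the smallest p in EMX1-FL. It encodes xCT, which brings cystine into the cell in exchange for glutamate, with SLC3A2 as its heavy chain. SLC7A11 was at 477.9, 496.7 and 345.0 CPM in the vector control, 550.5, 756.2 and 755.6 CPM in EMX1-FL, and 561.2, 383.9 and 350.5 CPM in EMX1-X1. All 3 EMX1-FL libraries lay above all 3 vector control libraries, and in every group the libraries of set 2 were the low ones. The log2 fold change was 0.64 in EMX1-FL versus control (SE 0.22, adjusted p = 0.586), -0.026 in EMX1-X1 versus control (adjusted p = 0.974) and 0.67 in EMX1-FL versus EMX1-X1 (SE 0.22, adjusted p = 0.611) by edgeR. The unadjusted p of the first and last was under 0.05. The exact permutation test gave p = 0.1 for EMX1-FL versus control and p = 0.2 for EMX1-FL versus EMX1-X1. For EMX1-FL versus control the difference was 0.63 within set 1 (2 libraries a side) and 0.67 within set 2 (1 library a side). For EMX1-FL versus EMX1-X1 it was 0.43 within set 1 (2 libraries against 1) and 0.59 within set 2 (1 against 2). So few libraries cannot show whether the sizes were alike. With the GC offset the log2 fold change of EMX1-FL versus EMX1-X1 fell from 0.67 to 0.35 (adjusted p = 0.431, edgeR). With the library set as a covariate, SLC7A11 had a log2 fold change of 0.65 against the vector control (adjusted p = 0.00277, edgeR). The sets were drawn from these same counts, so that p-value can be too small. With a GC offset the log2 fold change was 0.50 (adjusted p = 0.0579, edgeR). The unadjusted p was no longer under 0.05 without vector control 3 (log2 fold change 0.48) or without EMX1-FL 2 (0.55), nor in EMX1-FL versus EMX1-X1 without EMX1-X1 3 (0.54).

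The heavy chain and the related transporter had values near 0 in EMX1-FL. SLC3A2 was at -0.054 in EMX1-FL and 0.21 in EMX1-X1, and SLC7A5 (LAT1, which imports large neutral amino acids with the same heavy chain) was at -0.068 and 0.16. VLDLR, a lipoprotein receptor that ATF4 can induce, was at 32.9, 37.0 and 30.4 CPM in the vector control and at 28.9, 26.4 and 26.3 CPM in EMX1-X1. These groups did not overlap, and the log2 fold change of VLDLR was -0.30 (SE 0.18, adjusted p = 0.663, edgeR), with -0.27 within set 1 and -0.21 within set 2. In each comparison of the main fit the median of one arm lay above that of all genes and the median of the other below it. Other fits did not keep this order. The median log2 fold change in EMX1-FL versus control was 0.057 for the ER arm and -0.061 for the ATF4 arm, where that of all genes tested was 0.045. It was -0.11 and 0.12 in EMX1-X1 versus control, where all genes had 0.0098. In EMX1-FL versus EMX1-X1 it was 0.075 and -0.22, where all genes had 0.021. With the GC offset the ER and ATF4 arm medians were -0.038 and -0.088 in EMX1-FL versus control, where all genes had -0.029. They were -0.068 and -0.13 in EMX1-X1 versus control, where all genes had -0.026, so both arms lay below all genes in both. In EMX1-FL versus EMX1-X1 they were 0.010 and 0.0010, where all genes had 0.0010. With the library set as a covariate they were -0.022 and -0.053 in EMX1-X1 versus control, where all genes had 0.029. That covariate kept the order in the other comparisons.

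The level of an arm as a mean over its genes spread more within groups in the ATF4 arm than in the ER arm, and that spread followed the library sets. The level of an arm in a library is the mean, over its 18 genes, of the difference between log2 CPM and the gene's mean over 9 libraries. For the ATF4 arm it was -0.083, -0.043 and 0.17 in control libraries 1 to 3, 0.24, -0.22 and -0.26 in EMX1-FL 1 to 3, and -0.18, 0.14 and 0.22 in EMX1-X1 1 to 3. All 4 libraries of set 2 lay above all 5 of set 1, in every group. For the ER arm the levels ran from -0.075 (EMX1-FL 1) to 0.14 (EMX1-FL 3), and the sets overlapped. The SD of this mean within groups was 0.22 for the ATF4 arm and 0.070 for the ER arm. Single ER arm genes moved in opposite directions between the sets, from -0.64 (SEL1L) to 0.85 (SDF2L1) on the log2 scale. Such moves offset each other in the mean, so the smaller SD does not show that single ER arm genes were steadier.

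**Figure D3:**
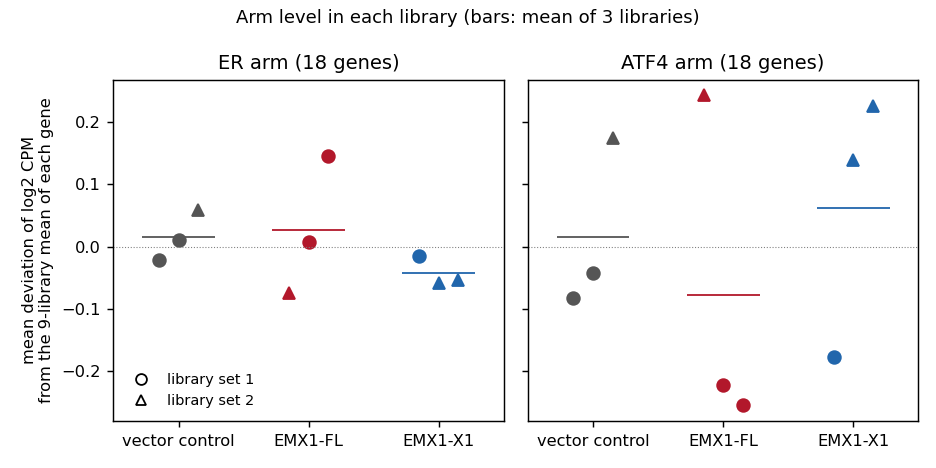
Level of each arm in each library (vertical axis, mean deviation of log2 CPM from the 9-library mean of each gene), by group, with circles for library set 1, triangles for set 2 and bars for group means. In the ATF4 arm the 4 triangles lie at 0.14 to 0.24 and the 5 circles at -0.26 to -0.043, while in the ER arm the sets overlap.

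Of the ATF4 arm, 13 of 18 genes had a higher mean log2 CPM in set 2 than in set 1, and for 10 of them every library of set 2 lay above every library of set 1. Those were ATF4, CEBPB, TRIB3, PPP1R15A, CHAC1, SESN2, DDIT4, PHGDH, SLC7A5 and SLC3A2. The median difference over the arm was 0.49. In the ER arm, 9 of 18 genes were higher in set 2, and the median was -0.040. SDF2L1 and PDIA4 lay wholly above and HSP90B1, DNAJB9, SEL1L, ATF6 and EIF2AK3 wholly below. Over all genes with a GC value, 50.9% were higher in set 2. The sets did not overlap for 55.6% of the ATF4 arm, 38.9% of the ER arm and 33.8% of all these genes. The heat map of all members shows the ATF4 arm turning from low to high between the libraries of one group.

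**Figure D4:**
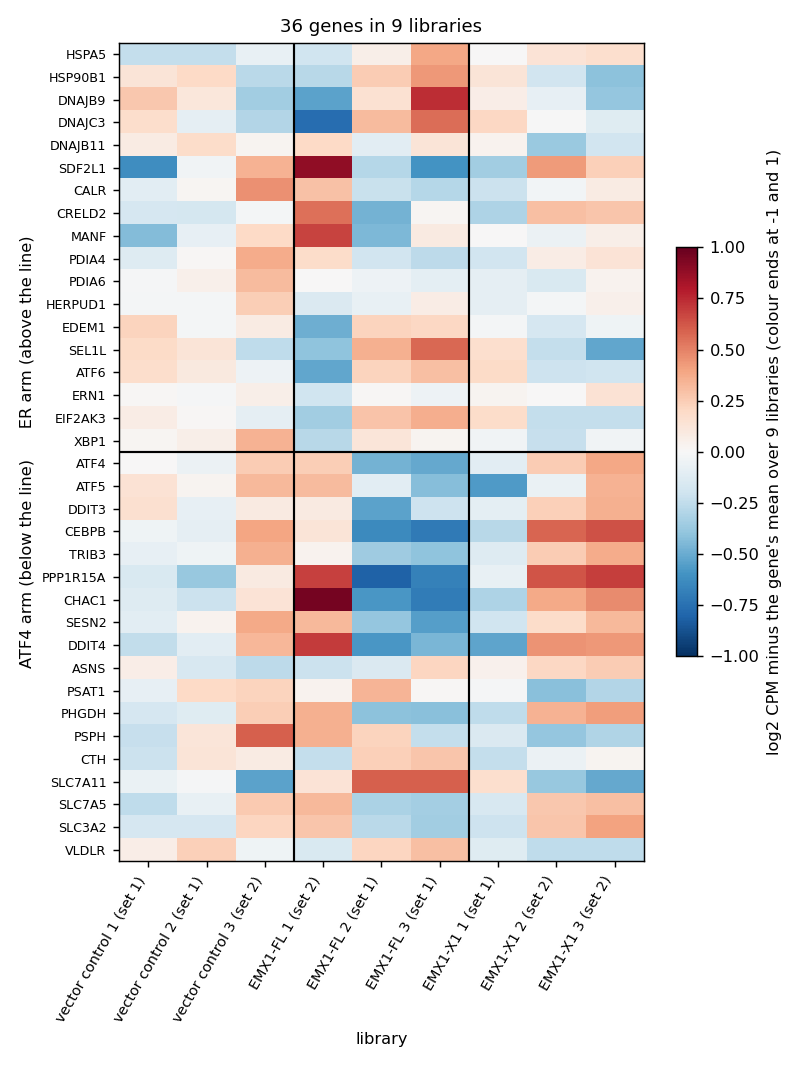
Log2 CPM of each of the 36 genes (rows) minus the gene's mean over 9 libraries, in each library (columns, with its library set), on a colour scale from blue (-1) to red (1). Most rows of the ATF4 arm are red in the 4 libraries of set 2 and blue in EMX1-FL 2 and 3, while SLC7A11, VLDLR and several ER arm rows run the other way.

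The base composition of the members went with this division. The difference between sets, set 2 minus set 1, ran from -0.64 (SEL1L, 39.4% GC) to 0.94 (PPP1R15A, 58.8% GC) on the log2 scale, and its rank correlation with the GC content of the gene's longest transcript was 0.93 over the 36 members (Pearson 0.92), where all genes tested had a rank correlation of 0.81. This is a description across genes that share the same 9 libraries. The median GC content was 57.0% in the ATF4 arm, 45.5% in the ER arm and 48.1% in all genes. The pattern crossed the arms. SDF2L1 of the ER arm, with 65.5% GC, was higher in set 2 by 0.85, and SLC7A11 of the ATF4 arm, with the lowest GC content of the members (35.4%), was at -0.58. When the curve of the difference on GC content over all genes was subtracted, a median of 0.083 was left for the ATF4 arm, with 14 of 18 genes above 0, and 0.078 for the ER arm, with 10 of 18 above 0. Over all genes with a GC value the median left was -0.002, with 8823 of 17752 above 0. Whether the division arose in the cells or in library preparation was not tested, since no label records the preparation.

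**Figure D5:**
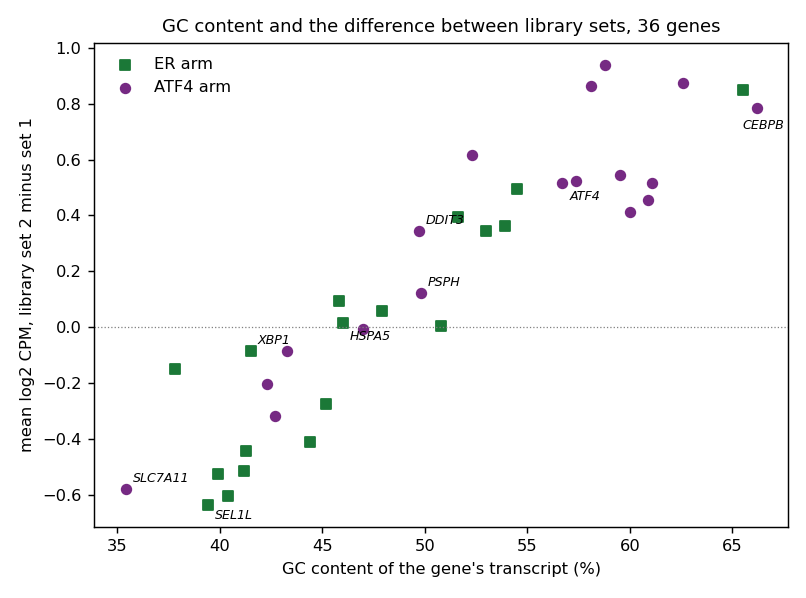
Difference of mean log2 CPM between library set 2 and set 1 (vertical axis) against the GC content of the gene's longest transcript in percent (horizontal axis), for the 18 ER arm genes (squares) and the 18 ATF4 arm genes (circles), with 8 genes named. Points climb from SLC7A11 (35.4%, -0.58) to CEBPB (66.2%, 0.79).

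EMX1-FL 1 was the only EMX1-FL library of set 2, and the counts of members depended on it. Without it, 11 members (30.6%) had an unadjusted p under 0.05 in EMX1-FL versus control, where 16.4% of all genes then tested did, and 19 (52.8%) in EMX1-FL versus EMX1-X1, where 34.7% did, so the members' shares lay above those of all genes in both. At that level 7 ATF4 arm genes were lower and SLC7A11 was higher in EMX1-FL than in the vector control, with an arm median of -0.42. In the ER arm 2 genes were higher and 1 was lower, with an arm median of -0.055. Of all members, 0 reached an adjusted p under 0.05. Against EMX1-X1, 11 ATF4 arm genes were lower and 3 higher, with an arm median of -0.50, while 5 ER arm genes were higher and 0 lower, with 0.16. ATF4, CEBPB, PPP1R15A, CHAC1 and SLC7A11 then reached an adjusted p under 0.05, where 6.05% of all genes did. CEBPB (-1.03, adjusted p = 0.0457) and PPP1R15A (-1.18, adjusted p = 0.0457) also passed the fold change of 1 in edgeR's test. In that fit both EMX1-FL libraries were of set 1, while 2 of 3 EMX1-X1 libraries and 1 of 3 control libraries were of set 2. The group and the library set were thus partly confounded in both comparisons. Within set 1 alone the difference was -0.40 for CEBPB and -0.66 for PPP1R15A, from 2 EMX1-FL libraries and 1 of EMX1-X1. With all 9 libraries and the set as a covariate, the ATF4 arm median was -0.094 in EMX1-FL versus control, -0.053 in EMX1-X1 versus control and -0.088 in EMX1-FL versus EMX1-X1. Within set 1 alone the ATF4 arm median in EMX1-FL versus control was -0.29, from 2 libraries a side, and within set 2 it was -0.0050, from 1 library a side.

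With that covariate, 6, 8 and 6 members (16.7%, 22.2% and 16.7%) had an unadjusted p under 0.05 in the 3 comparisons, where 15.1%, 12.6% and 12.9% of all genes did. In EMX1-FL versus control they were SLC7A11, higher, and ATF4, DDIT3, CEBPB, TRIB3 and SESN2, with log2 fold changes of -0.50 to -0.28. SLC7A11 and CEBPB were the 2 members with an adjusted p under 0.05, a level that 1.53% of all genes reached in this fit. Because the sets were drawn from the same counts, the p-values of this fit can be too small. In EMX1-X1 versus control, HSPA5 (0.30) and ASNS (0.32) were higher and CALR, PDIA4, PDIA6, ATF5, PSAT1 and PSPH lower, with no adjusted p under 0.232.

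Other genes of the same pathways, which are not among the 36, were mostly below the thresholds too, with SEC61G and NUPR1 as the exceptions at the study's threshold. Of 35 other ER genes (translocation, glycosylation, redox and degradation), 34 were tested, and in EMX1-FL versus control 1 was higher and 1 lower at an unadjusted p under 0.05 (5.88%, against 5.8% of all genes), while the groups did not overlap for 5 (14.7%, against 10.5%). SEC61G, a subunit of the channel that threads new proteins into the ER, was the 1 past the study's threshold, with 34.8 ± 10.9 CPM in the control libraries against 71.7 ± 12.01 in EMX1-FL (SD, n = 3), a log2 fold change of 1.04 (adjusted p = 0.615, edgeR), with 1.19 within set 1 and 0.84 within set 2. Of the 34, 0 in EMX1-X1 versus control had an unadjusted p under 0.05, the smallest being that of PDIA3 (-0.30, adjusted p = 0.619, edgeR), where 8.11% of all genes reached that level. SEC61G was at 0.90 in EMX1-FL versus EMX1-X1 (adjusted p = 0.611, edgeR), a difference of 0.0096 within set 1 and 1.72 within set 2.

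Of 40 other ATF4 genes (tRNA synthetases, transporters, one-carbon enzymes and stress outputs), all 40 were tested. In EMX1-FL versus control 0 were higher and 1 was lower at an unadjusted p under 0.05 (2.5%, against 5.8% of all genes), WARS1, a tRNA synthetase, with -0.35 (adjusted p = 0.816, edgeR). For EMX1-X1 versus control, 2 were higher and 2 lower (10%, against 8.11%). NUPR1, a stress-induced chromatin protein, was past the study's threshold with 1.17 ± 0.27 CPM in the vector control and 2.51 ± 1.05 in EMX1-X1 (SD, n = 3), a log2 fold change of 1.10 (adjusted p = 0.585, edgeR), with 1.05 within set 1 and 0.77 within set 2. The secreted stress factor GDF15 had the smallest p there, 0.87 (adjusted p = 0.538, edgeR), with 0.19 within set 1 and 0.93 within set 2. In EMX1-FL versus EMX1-X1, 2 were lower (5%, against 7.63%), the smallest p being that of SLC43A1, an amino acid transporter, with -0.69 (adjusted p = 0.611, edgeR).

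Of 14 cytosolic heat shock genes, which answer misfolded protein outside the ER, 0 passed at an unadjusted p under 0.05 in EMX1-FL versus control. The EMX1-X1 versus control test gave 1 higher and 2 lower (21.4%, against 8.11% of all genes), HSPA8 with the smallest p (-0.54, adjusted p = 0.538, edgeR). In EMX1-FL versus EMX1-X1 2 were higher and 2 lower (28.6%, against 7.63%), HSP90AA1 with the smallest p (0.86, adjusted p = 0.611, edgeR). The median log2 fold changes of these 3 lists lay between -0.12 and 0.15 in the 3 comparisons, and no gene of them reached an adjusted p under 0.05.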

How the data were processed

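RNA-seq counts of 9 SNU-398 libraries were grouped by their labels. The authors trimmed reads with fastp, aligned them with STAR and deposited the raw count of read pairs on each gene name. The header of the count table names featureCounts 2.0.1 with Ensembl release 99 of GRCh38, the labels featureCounts 2.0.6, and the paper's methods RSEM. The header shows no strand option, so reads of antisense partners cannot be told apart. A deposited table of log2(TPM + 1), on the log2 scale, was also used and was recomputed from the counts and the deposited gene lengths within 5e-06.

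Counts were filtered (filterByExpr), scaled (TMM) and fitted over all 9 libraries by group in R 4.3.3 with edgeR 4.0.16 (quasi-likelihood test, 6 residual degrees of freedom, Benjamini-Hochberg adjustment over 18574 genes in each comparison). Log2 CPM used a prior count of 2. Alternatives used DESeq2 1.42.0 and limma 3.58.1, other factors and filters, each library left out, the replicate number as a block, the library set as a covariate, and a GC offset (loess, span 0.3) over the 95.6% of genes tested with a GENCODE 29 transcript. CPM are per 1000000 counted pairs at TMM-scaled library sizes. Tables and plots were made in Python 3.11.15 (pandas 2.3.3, matplotlib 3.10.9).

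The members and lists were chosen with earlier results of these data known. Values in every library were given for HSPA5, XBP1, ATF4, DDIT3, each member with an unadjusted p under 0.05, or else the member of an arm with the smallest p. PPP1R15A, PSAT1 and VLDLR were added to these after their values were seen, as were CHAC1 in EMX1-FL and, in other lists, the genes with the smallest p. No library was left out of the main comparisons. Counts of at least 171 stood behind every member, and between 21562703 and 25197970 pairs behind every library.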

Additional observations from a re-analysis of the deposited data

Results flagged for a closer look

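A pair of members had an unadjusted p under 0.05 in edgeR's test of EMX1-FL versus EMX1-X1. SLC7A11 had a log2 fold change of 0.67, with an adjusted p = 0.611, and the difference was 0.43 within library set 1 and 0.59 within set 2, and 0.35 with the GC offset. CEBPB had a log2 fold change of -0.72, with an adjusted p = 0.611, and the difference was -0.40 within set 1 and -0.48 within set 2, and -0.27 with the GC offset. These were 5.56% of the members, where 7.63% of all genes tested reached the same level. For both genes the groups overlapped, and the exact permutation test gave p = 0.2. Over the 22 alternatives the adjusted p ran from 0.0462 to 0.989 for SLC7A11 and from 0.0457 to 0.989 for CEBPB, the low ends being without EMX1-FL 1.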

How the results depend on the processing

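Each result was recomputed under 22 alternatives. In the comparisons with the vector control 0 members passed the study's threshold or the adjusted one under any of them. In EMX1-FL versus EMX1-X1 this held except without EMX1-FL 1, where 2 passed both, a range of 0 to 2 with 1 library left out. Without EMX1-FL 1, 1108 of 19195 genes tested passed the study's threshold there and 490 the adjusted one. Members with an unadjusted p under 0.05 were 1 in EMX1-FL versus control (2.78%, against 5.8% of all genes). They became 2 with no filter (5.56%, against 4.63%) and 6 with the library set as a covariate (16.7%, against 15.1%). They were 5 with the GC offset (13.9%, against 13.3%) and 5 with the GC offset and replicate block (13.9%, against 11.5%). With 1 library left out they were 0 to 11. The 0 came without vector control 3 (against 4.55%) or EMX1-FL 2 (against 5.19%), and the 11 without EMX1-FL 1 (30.6%, against 16.4%). For EMX1-X1 versus control they were 0 (against 8.11% of all genes). They became 1 (2.78%) with DESeq2 (against 9.21%), limma on log2(TPM + 1) (9.44%), log2(TPM + 0.1) (9.5%) and at least 10 counts in every library (8.12%). They were 2 with no filter (5.56%, against 7.34%) and 4 in a fit of the 6 libraries compared (11.1%, against 13.2%). They were 8 with the covariate (22.2%, against 12.6%), 7 with the GC offset (19.4%, against 12.9%) and 5 with it and the block (13.9%, against 10.7%). With 1 library left out they were 0 to 3, with 3 without EMX1-FL 1 (8.33%, against 14.6%). In EMX1-FL versus EMX1-X1 they were 2 (5.56%, against 7.63% of all genes). They became 4 (11.1%) with library size alone (against 7.46%), log2(TPM + 0.1) (7.43%), the GC offset (9.36%) and the GC offset with the block (7.82%). They were 5 with no filter (13.9%, against 7.49%) and 6 with the covariate (16.7%, against 12.9%). With 1 library left out they were 0 to 19, with 19 without EMX1-FL 1 (52.8%, against 34.7%) and 6 without EMX1-X1 1 (16.7%, against 20.1%). They were 1 (2.78%) without EMX1-FL 2 (against 2.83%) or EMX1-X1 2 (2.12%), and 0 without EMX1-X1 3 (2.03%). The cause of these moves was not tested.

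The ER arm median in EMX1-FL versus control (0.057) became 0.13 with log2(TPM + 1), 0.14 with log2(TPM + 0.1), -0.038 with the GC offset, -0.050 with it and the block, and -0.080 to 0.067 with 1 library left out. For EMX1-X1 versus control (-0.11) it became -0.018 on both TPM scales and -0.022 with the covariate, and in EMX1-FL versus EMX1-X1 (0.075) 0 with the GC offset and block, and 0.020 to 0.16 with 1 library left out. The ATF4 arm median in EMX1-FL versus control (-0.061) was -0.42 to 0.040 with 1 library left out. For EMX1-X1 versus control (0.12) it became -0.13 with the GC offset and -0.12 with it and the block, and in EMX1-FL versus EMX1-X1 (-0.22) 0.0080 with both, and -0.50 to -0.11 with 1 library left out. The lowest ATF4 arm medians were those without EMX1-FL 1. With log2(TPM + 0.1) the median of all genes in EMX1-X1 versus control moved from 0.0098 to 0.11.

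Directions of single members turned with the covariate (2, 15 and 9 of 36 in EMX1-FL versus control, EMX1-X1 versus control and EMX1-FL versus EMX1-X1) and with the GC offset (4, 11 and 12). The largest value that turned under either was CHAC1 in EMX1-X1 versus control, from 0.28 to -0.074 and -0.13. ATF4 in EMX1-X1 versus control (0.12) became -0.052 with the covariate, -0.11 with the GC offset, -0.11 with it and the block, and -0.0012 to 0.23 with 1 library left out, and DDIT3 there became -0.00078 with the covariate. HSPA5 in EMX1-FL versus EMX1-X1 (-0.0058) became 0.00091 with RLE factors, 0.011 with upper-quartile factors, 0.00090 with DESeq2, 0.0094 with at least 10 counts in every library, 0.0026 with the 6 libraries compared, and -0.17 to 0.14 with 1 library left out. XBP1 there (0.062) became -0.17 with the GC offset, -0.15 with it and the block, and -0.030 to 0.19 with 1 library left out. For CEBPB in EMX1-FL versus EMX1-X1, the unadjusted p of edgeR was no longer under 0.05 in 4 of the 9 fits without 1 library (EMX1-FL 2 or 3, EMX1-X1 2 or 3).

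The labels repeat replicate numbers across groups but do not say what a number shares. Of 9 pairs of libraries with the same number, 3 had residuals correlated above 0.1 (range -0.52 to 0.29), so the numbers were not taken as pairs. With the replicate block, 1, 0 and 1 members (2.78%, 0% and 2.78%) had an unadjusted p under 0.05 in the 3 comparisons. Of all genes, 3.87%, 5.23% and 4.04% did. CEBPB in EMX1-FL versus EMX1-X1 had a log2 fold change of -0.71 in this fit and was no longer among those members (adjusted p = 0.770, edgeR). With 3 libraries a group, the standard errors of the members lay between 0.15 and 0.39 log2 units in edgeR's fit, which limits what could be seen.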
